A study of Homo sapiens with 28 samples.

Results

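SNAP25, STMN2, SCG3, GRIA2, SCN2A and CHRNB2 are neuronal genes that REST is known to silence outside the nervous system, and their surroundings were examined in GP5d, an established human colon adenocarcinoma line. Members were all peaks with any base within 50 kb of 1 given hg18 position per gene: 95 of the 393268 peaks in 22 lists. In chromatin immunoprecipitation sequencing (ChIP-seq), DNA cross-linked to a protein is recovered with an antibody and sequenced, and a peak is a stretch where the sequenced tags pile up. Cells received 50 nM of a neutral control siRNA or of an siRNA against RAD21, one of the proteins that make up the cohesin ring, and were harvested after 72 hours. Each of 11 targets had 1 library per siRNA, called against an immunoglobulin G (IgG) library of the same siRNA, from goat for CTCF and RFX2 and from rabbit for the others. All differences between the siRNAs therefore lack a replicate check, no test between libraries was made, and every interval covers counting error only.

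REST is a zinc finger repressor that recognises the RE1 element, a sequence of a pair of blocks with a short spacer, and brings in corepressor complexes with histone deacetylases. CTCF is a zinc finger protein that halts loop extrusion by cohesin, so CTCF, RAD21 and its partner SMC3 often share sites. H3K4me1, a monomethylated lysine of histone H3, is found at enhancers and beside promoters. For the H3K4me1 libraries the labels give a product number that, from general knowledge, is that of an antibody to histone H3 in any state, so which antibody was used is unsettled. RNA was not analysed here, so silencing of these genes was not measured.

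The RE1 letters of 2 of the genes are shown because RE1 is the element that REST recognises, and the search for it used no peak. The search covered RefSeq promoters of GRCh38.p14, each 250 bases before to 50 after a start site, which held 7 promoters for 4 of the genes. SNAP25 and STMN2 had no entry. The first block searched was TTCAGCACC and the second GGACAGCGC, with 2 bases between them, on both strands and with at most 3 mismatches over the 18 letters. Of 35116 promoters, 0.128% held such a match, and GRIA2 alone of the 4 genes did, with 0 mismatches. With 3 to 11 bases between the blocks and at most 1 mismatch, a search chosen after the data were seen, 0.0313% of promoters matched, and SCG3 did with 0 mismatches and a spacer of 8 bases. Capitals mark the blocks.
GRIA2: ggcctTTCAGCACCgaGGACAGCGCctcgc
SCG3: acTTCAGCACCcacagggcGGACAGCGCtc
The GRIA2 stretch lies at chr4:157220384-157220413 on the minus strand, and its match began 230 bases before a start site. The SCG3 stretch lies at chr15:51681509-51681538 on the plus strand, and its match began 8 bases after the start site. The best matches at 2 bases apart in the CHRNB2 promoter and both SCN2A promoters had 8 mismatches. A match is a description of letters. GRCh38 positions cannot be placed on the hg18 peaks here.

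All 6 genes had a REST peak beside their position under both siRNAs. Under control siRNA each gene had exactly 1 REST peak, and each was overlapped by at least 1 bp by a REST peak under RAD21 siRNA, called retained here. Retention was thus 6 of 6 (Clopper-Pearson 95% interval 54.1 to 100%), against 69.1% of all 4069 control REST peaks. The 6 peaks were mostly strong ones. Among the 2252 control REST peaks at least as strong by p as the weakest of the 6, the retained share was 96.9%. The count at the 6 genes is therefore close to that of REST peaks of like strength.

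**Figure D1:**
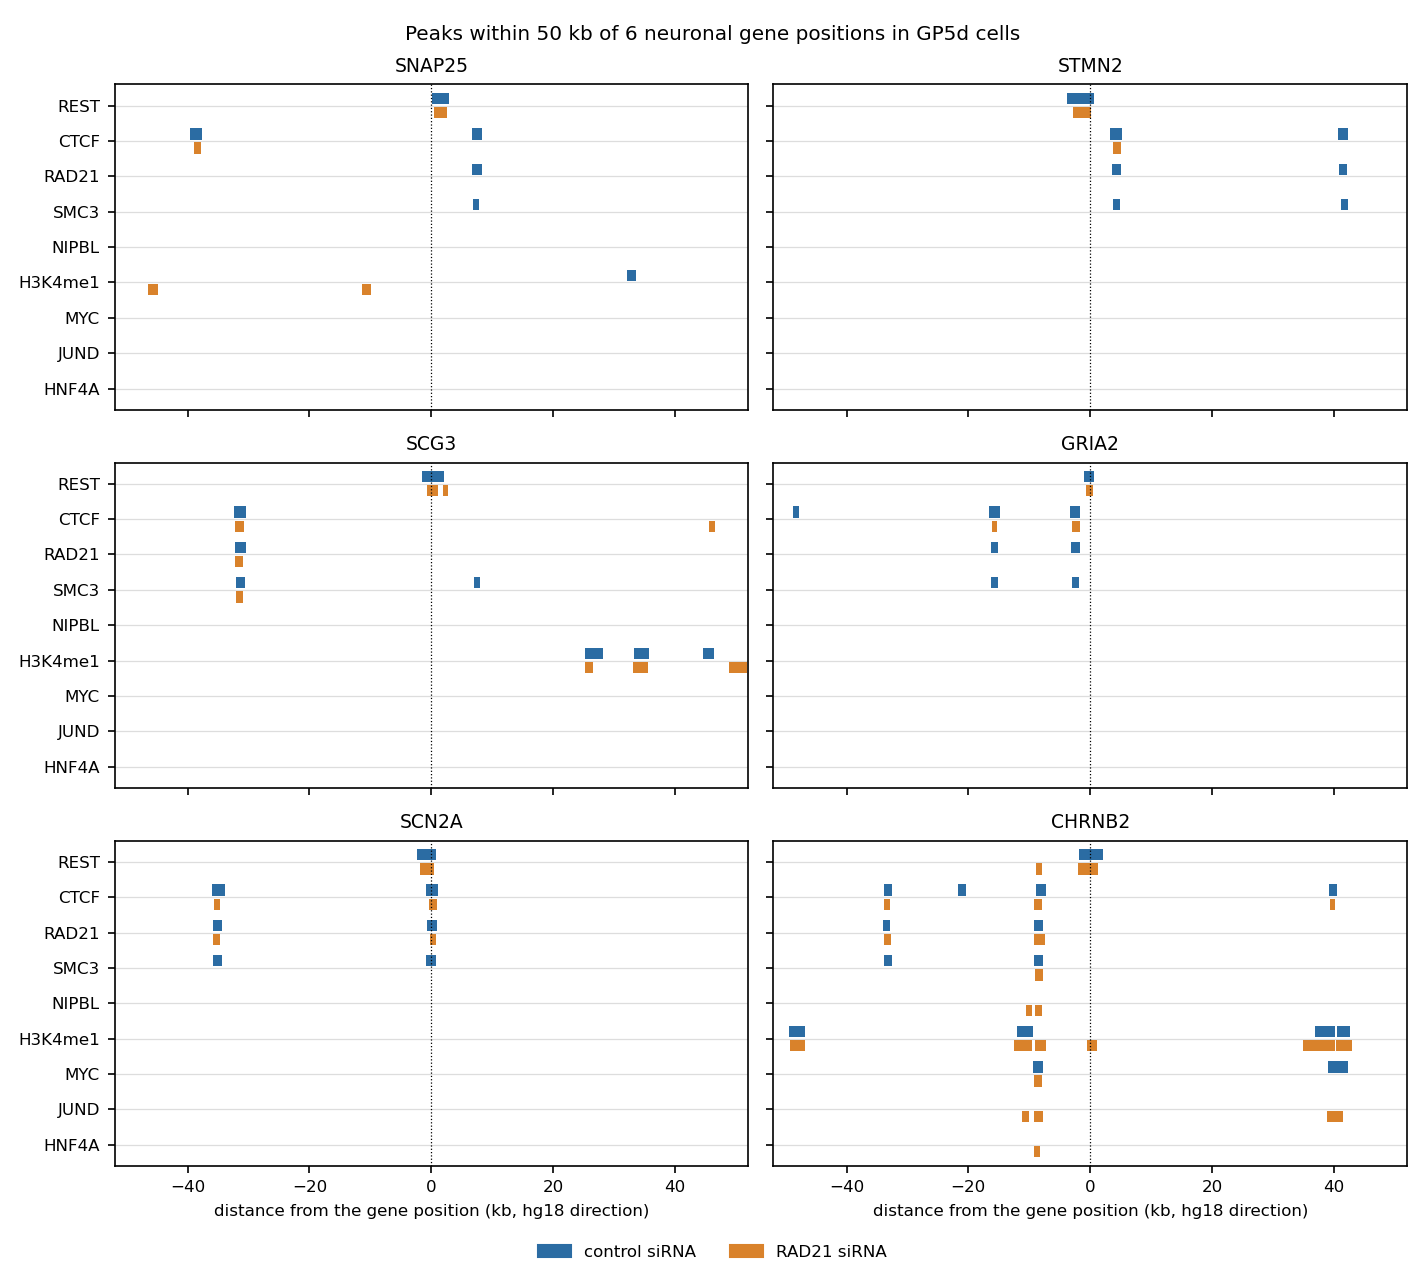
Peaks of 9 targets within 50 kb of each gene position, with distance in kb on the x axis and 1 line per target. Blue boxes above each line are control siRNA and orange boxes below it RAD21 siRNA, and box width is peak width. REST boxes of both colours sit at the dotted line in all 6 panels, whereas SMC3 has an orange box only at SCG3 and CHRNB2. KLF5 and RFX2, with no peak in these windows, are left out.

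The REST peaks lay on or next to the gene positions. SNAP25, a membrane protein of synaptic vesicle fusion, had its control REST peak on chromosome 20 from 10147149 to 10149926, with a summit 1.54 kb beyond the position. STMN2, a neuronal microtubule regulator, had its peak on chromosome 8 from 80682216 to 80686698, with a summit 1.63 kb before the position. SCG3, a secretogranin of dense-core granules, had its peak on chromosome 15 from 49759526 to 49763154, with a summit 32 bp from the position. In these 3 genes the summit thus fell on either side. GRIA2, an AMPA glutamate receptor subunit, had a peak on chromosome 4 from 158360016 to 158361674, with a summit 223 bp before the position. SCN2A, a voltage-gated sodium channel, had a peak on chromosome 2 from 165801605 to 165804744, with a summit 730 bp before it. CHRNB2, a subunit of the nicotinic acetylcholine receptor, had a peak on chromosome 1 from 152805213 to 152809153, with a summit 242 bp before it. "Before" and "beyond" refer to lower and higher hg18 coordinates, and gene starts were not checked against an hg18 annotation.

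The genes differed widely in REST enrichment under control siRNA. Strength is given as the p score, which is 10 times the negative log10 of the p-value, and as fold enrichment over the IgG background, both the authors' own values for a peak. STMN2 had 3100 and 115.95-fold, SCG3 3100 and 71.64-fold, and SCN2A 2989.57 and 68.99-fold. These formed a strong group, within the top 13.8%, 13.8% and 14.6% of the control REST list. The value 3100 may be a ceiling of the scale, since 562 control REST peaks were listed at it or above. SNAP25 had 1134.67 and 32.37-fold, and CHRNB2 802.58 and 22.77-fold. GRIA2, whose promoter window holds the RE1 blocks shown above, was the weakest at 181.63 and 16.99-fold, and its false discovery rate (FDR) was 7.05%. The other 5 peaks had an FDR of 0.33% or less.

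Under RAD21 siRNA SNAP25 had the strongest REST peak of the 6 genes, with a p score of 3100 and 168.41-fold enrichment. It stood within the top 4.63% of its list, having stood within the top 29.1% of the control list, although lists of 4069 and 4360 peaks do not make ranks comparable. SCG3 had 2111.31 and 69.45-fold, STMN2 2094.28 and 143.23-fold, CHRNB2 1098.72 and 66.84-fold, and SCN2A 1000.12 and 66.87-fold. GRIA2 was again the weakest, at 143.83 and 30.28-fold, with an FDR of 0.18%. Behind these values stood rabbit IgG libraries of 8916252 tags (control) and 4101535 tags (siRAD21), and their part in the p scores and folds was not tested.

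Tags per 1000000 library tags (RPM) allow for depth, which was 6787207 tags in the control REST library and 4203643 in the siRAD21 one. SNAP25 held 134 tags (19.7 RPM) under control siRNA and 246 (58.5 RPM) under RAD21 siRNA, a ratio of 2.96 (95% interval 2.39 to 3.69). CHRNB2 held 135 tags (19.9 RPM) and 158 (37.6 RPM), a ratio of 1.89 (1.49 to 2.40). At both genes the siRAD21 value lay above the control value beyond counting error. SCN2A held 249 tags (36.7 RPM) and 115 (27.4 RPM), a ratio of 0.746 (0.593 to 0.934), so its value was the lower one under RAD21 siRNA. STMN2 held 329 tags (48.5 RPM) and 181 (43.1 RPM), a ratio of 0.888 (0.737 to 1.07). SCG3 held 319 (47.0 RPM) and 215 (51.1 RPM), a ratio of 1.09 (0.911 to 1.30). For STMN2 and SCG3 no difference was detectable beyond counting error. GRIA2 held only 26 tags (3.83 RPM) and 19 (4.52 RPM), and its ratio of 1.18 had an interval of 0.617 to 2.22, too wide to place it above or below 1.

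**Figure D2:**
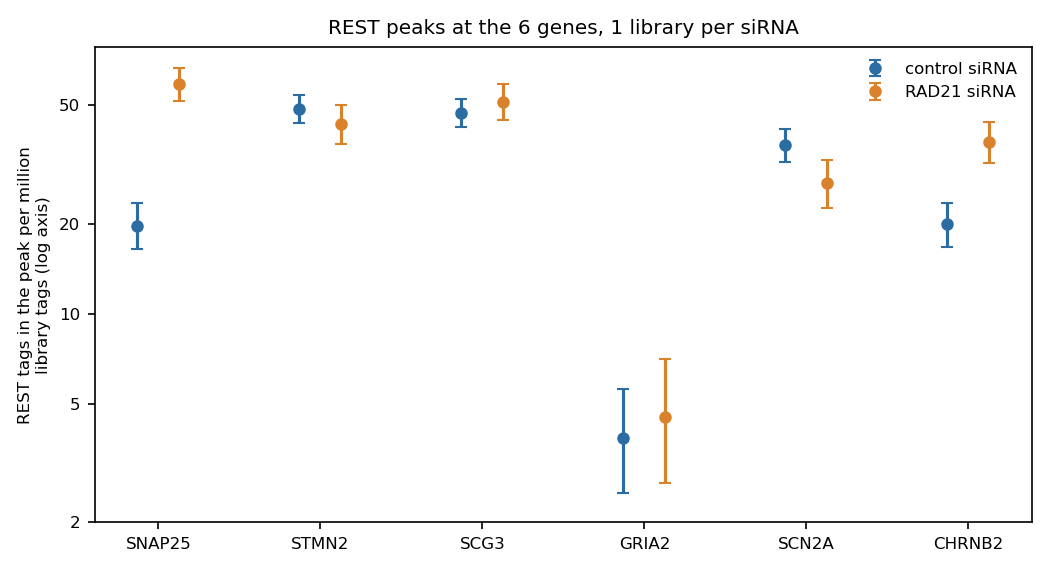
REST tags in the peak, in RPM, on a log axis for the 6 genes, with control siRNA in blue and RAD21 siRNA in orange. Points are single libraries and bars are exact Poisson 95% intervals, which cover counting error only. The intervals do not overlap at SNAP25 and CHRNB2, and GRIA2 lies far below the other genes under both siRNAs.

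Over all 2810 retained control REST peaks, each set against its siRAD21 peak with the most tags, the median ratio was 1.01, with 0.692 at the 10th and 1.67 at the 90th percentile. SNAP25 was the only gene of the 6 with a ratio of at least 2, which 6.69% of all pairs reached. Its ratio was at or above that of 96.8% of pairs, CHRNB2 of 92.4%, GRIA2 of 70.7%, SCG3 of 61.4%, STMN2 of 31.0% and SCN2A of 14.3%. The median over the 6 was 1.14. The median was 1.09 over the 131 pairs of chromosome 20, which holds SNAP25, and 0.978 over the 252 pairs of chromosome 1, which holds CHRNB2.

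**Figure D3:**
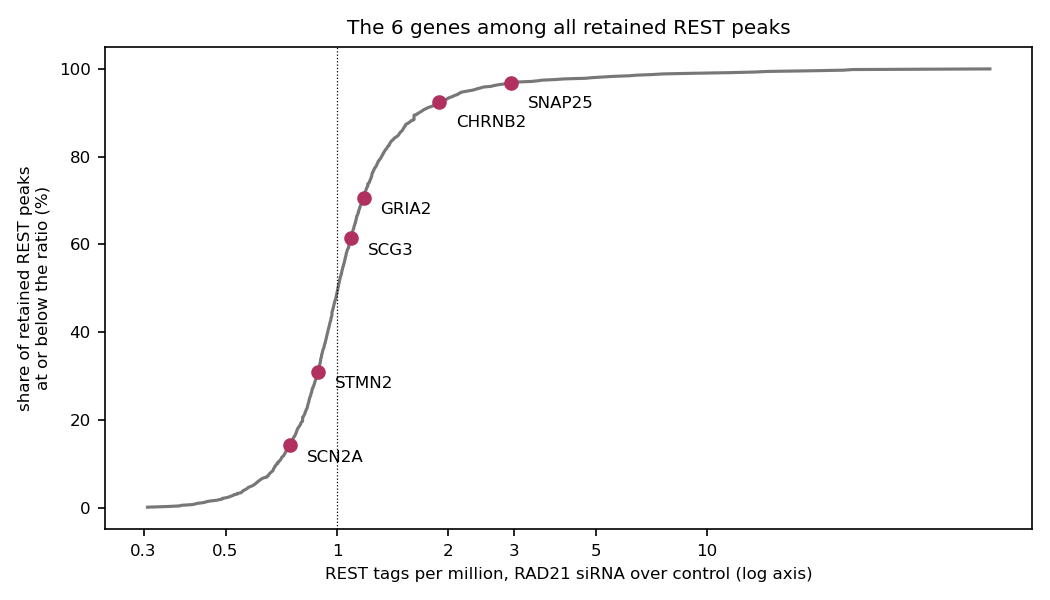
The ratio of REST RPM under RAD21 siRNA to control (x, log axis) against the share of retained REST peaks at or below it (y, percent). The grey line is drawn through 1 in every 4 of the 2810 pairs and the 6 genes are red points. SNAP25 at 2.96 and CHRNB2 at 1.89 stand in the upper tail, and SCN2A at 0.746 in the lower part.

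All 6 REST peaks were narrower under RAD21 siRNA, with a median width of 2211 bp against 3384 bp, as were 86.5% of all pairs. The SNAP25 peak held 7.11 RPM per kb of peak in the control and 27.6 after RAD21 siRNA, and the CHRNB2 peak 5.05 and 11.7. The SCG3 peak held 13.0 and 29.6, the GRIA2 peak 2.31 and 4.01, the STMN2 peak 10.8 and 14.2, and the SCN2A peak 11.7 and 11.9. Per kb of these narrower peaks the siRAD21 value was thus the higher one at all 6 genes, by little at SCN2A. This includes STMN2 and SCN2A, whose RPM ratios were 0.888 and 0.746. A narrower peak raises a value per kb. The same share over all pairs was not computed, so the count is not read as a trait of these genes. Summits moved by 24 bp at SCG3 to 146 bp at GRIA2, where the median over all pairs was 45 bp. At SCG3 the broad control peak was overlapped by a second, weak siRAD21 REST peak on chromosome 15 from 49762868 to 49763766, with 10 tags, a p score of 52.13 and an FDR of 17.04%.

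Most control REST peaks overlapped no other target, both at these genes and in the whole list. Under control siRNA 5 of the 6 REST peaks overlapped no peak of any other target, as did 73.2% of all control REST peaks. None of the 6 overlapped H3K4me1, which 14.7% of all control REST peaks did. SCN2A was the exception, with CTCF, RAD21 and SMC3 peaks overlapping its REST peak. In the whole list 10.4% of control REST peaks overlapped CTCF and 9.39% overlapped RAD21.

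At SCN2A the REST summit lay 730 bp before the position, and the CTCF, SMC3 and RAD21 summits lay 0.101, 0.135 and 0.265 kb beyond it. CTCF held 115 tags there (9.56 RPM, p score 314.26), RAD21 90 (6.11 RPM, 563.10) and SMC3 72 (4.20 RPM, 380.22). Under RAD21 siRNA, CTCF held 22 tags (5.28 RPM, 79.91) and RAD21 18 (1.99 RPM, 54.07, FDR 7.19%). SMC3 had no peak there. REST was retained beside it, and its RPM ratio of 0.746 was the lowest of the 6 genes.

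CTCF and cohesin occupied every locus under control siRNA. CTCF had 14 peaks, RAD21 10 and SMC3 11. The whole control lists hold 44027, 36204 and 38799 peaks. The share of other windows of this size with such peaks was not computed, so occupancy of every locus is a description only. The CTCF, RAD21 and SMC3 peaks of both siRNAs, joined where they overlapped, formed 16 sites. Of these, 10 carried all 3 proteins in the control: 2 each at STMN2, GRIA2, SCN2A and CHRNB2, and 1 each at SNAP25 and SCG3. In the whole list 27720 of 44027 control CTCF peaks overlapped both RAD21 and SMC3, beside 10 of 14 here. At these 10 sites the control summits of the 3 proteins lay within 237 bp of each other. CTCF alone held 4 sites, and SMC3 alone held 1, with 22 tags, 7.51 kb beyond the SCG3 position.

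Cohesin was called at fewer of these sites under RAD21 siRNA. RAD21 was retained at 5 of its 10 peaks (95% interval 18.7 to 81.3%), against 46.6% of all control RAD21 peaks. SMC3 was retained at 2 of 11 (2.28 to 51.8%), against 28.4%. CTCF was retained at 10 of 14 (41.9 to 91.6%), against 63.1%. Each interval includes the share of the whole list. At the 10 shared sites CTCF was found again at 8, RAD21 at 5, SMC3 at 2 and all 3 together at 2. Among 27720 such sites genome-wide, the shares were 78.1%, 57.8%, 37.9% and 33.0%.

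The shared sites came out in 4 states. At SCG3, 31.4 kb before the position, and at CHRNB2, 8.25 kb before it, all 3 proteins were retained. At both SCN2A sites and at the CHRNB2 site 33.5 kb before the position, CTCF and RAD21 were retained and SMC3 was not called. At both GRIA2 sites, 15.7 and 2.66 kb before the position, and at the STMN2 site 4.40 kb beyond it, CTCF alone was retained. At SNAP25, 7.55 kb beyond the position, and at STMN2, 41.5 kb beyond it, none of the 3 was called. SNAP25 and STMN2 thus had no cohesin peak within 50 kb under RAD21 siRNA, and neither had GRIA2. REST was retained at all 3 of these genes.

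The strongest CTCF peak of each gene ranged widely in the control. CHRNB2 had 1378.50 (229 tags), SCG3 657.74 (123), SCN2A 607.88 (108), GRIA2 420.68 (71), SNAP25 366.99 (77) and STMN2 272.28 (94). The strongest under RAD21 siRNA had p scores of 608.19 (67 tags) at CHRNB2, 132.24 (20) at SCN2A, 122.97 (24) at SCG3, 83.58 (14) at GRIA2, 70.27 (22) at SNAP25 and 69.81 (15) at STMN2. At GRIA2 these were different sites, 15.7 kb before the position in the control and 2.66 kb before it under RAD21 siRNA. CTCF was thus listed at every gene under both siRNAs, from few tags in the siRAD21 library outside CHRNB2. For RAD21, which forms the ring with SMC3, the strongest control peaks had 737.08 (144 tags) at SCG3, 563.10 (90) at SCN2A, 469.74 (96) at CHRNB2, 168.30 (41) at GRIA2, 140.79 (34) at STMN2 and 127.82 (46) at SNAP25. Under RAD21 siRNA they had 543.26 (74) at CHRNB2, 211.10 (43) at SCG3 and 54.07 (18) at SCN2A. At CHRNB2 these were different sites, 33.5 kb before the position in the control and 8.27 kb before it under RAD21 siRNA. The CHRNB2 site at 33.5 kb had 83.14 (21) under RAD21 siRNA. The strongest SMC3 peaks had 433.05 at GRIA2, 382.28 at CHRNB2, 380.22 at SCN2A, 298.91 at SCG3, 116.77 at STMN2 and 92.22 at SNAP25 in the control. Under RAD21 siRNA SMC3 had 213.24 at CHRNB2 and 61.27 (18 tags, FDR 14.7%) at SCG3. SCG3, SCN2A and CHRNB2 therefore kept RAD21, and SNAP25, STMN2 and GRIA2 had the weakest RAD21 peaks in the control.

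Retention of RAD21 at these genes followed the strength of the control peak. The 5 retained peaks had p scores of 430.86 and above, and the 5 others 168.30 and below, with no overlap. In the whole list 90.0% of RAD21 peaks at least as strong as 430.86 were retained, and 14.9% of those no stronger than 168.30. SMC3 showed no such split. Its retained peaks, at SCG3 and CHRNB2, had 298.91 and 382.28, whereas the strongest SMC3 peak of all, at GRIA2 with 433.05 and 72 tags, had no siRAD21 counterpart. For CTCF, the 4 peaks not retained had 75.54, 139.21, 215.37 and 239.16, while a CTCF peak of 91.36 at CHRNB2, 39.8 kb beyond the position, was retained. With a p score of at least 100 required under both siRNAs, retention was 33.3% for CTCF and 22.2% for RAD21. With an FDR under 5% it was 2 of 10 for RAD21 and 1 of 10 for SMC3. With both lists cut to the length of the shorter it was 100% for RAD21. That cut, to 19752 peaks, left out the 5 weaker control peaks that were not retained, so the 100% covers only the 5 retained ones.

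**Figure D4:**
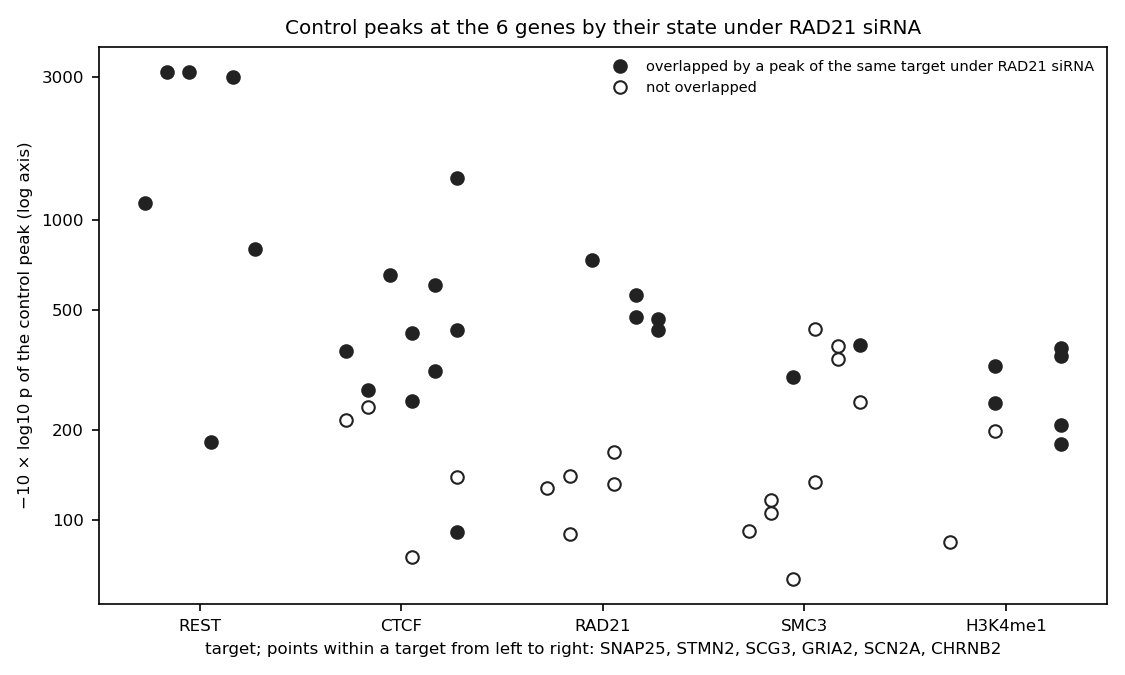
p score (10 times the negative log10 of p) of each control peak at the 6 genes (y, log axis) for REST, CTCF, RAD21, SMC3 and H3K4me1, with the genes in a fixed order from left to right within each target. Filled points were overlapped by a peak of the same target under RAD21 siRNA and open points were not. RAD21 splits between 168.30 and 430.86, all 6 REST points are filled, and open SMC3 points reach 433.05.

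Most retained CTCF and cohesin peaks also held fewer RPM under RAD21 siRNA, with the CTCF peak 39.8 kb beyond the CHRNB2 position as the exception. CTCF ratios of siRAD21 to control ranged from 0.461 at STMN2 to 1.25 at CHRNB2, with 9 of 10 below 1 and a median of 0.575, against a median of 0.770 over 27760 retained CTCF peaks. RAD21 ratios ranged from 0.325 at SCN2A to 0.748 at CHRNB2, with 5 of 5 below 1 and a median of 0.369, against 0.490 over 16878. SMC3 had 0.377 at SCG3 and 0.437 at CHRNB2, against a median of 0.378 over 11014 retained SMC3 peaks. Over all retained pairs the lower and upper deciles were 0.481 and 1.45 for CTCF, 0.322 and 0.734 for RAD21, and 0.248 and 0.596 for SMC3. Most RAD21 and SMC3 pairs of the whole lists were thus also below 1. The medians at the loci lay between these deciles. The share of all pairs below 1 was not computed, so the counts and lower medians are not read as a trait of these genes. Library depth was lower under RAD21 siRNA, namely 0.346 of the control depth in the CTCF pair, 0.615 in the RAD21 pair and 0.531 in the SMC3 pair. The part of depth in the lost peaks was not tested.

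The CHRNB2 surroundings held the most peaks, 36 of the 95, and were the only ones of the 6 with peaks of MYC, JUND, HNF4A or NIPBL. In the gene order of GRCh38, CHRNB2 lies between UBE2Q1 and ADAR. Its densest site lay 8.25 kb before the position. Under control siRNA the site carried CTCF with 229 tags (19.0 RPM), RAD21 with 161 (10.9 RPM), SMC3 with 155 (9.04 RPM) and the growth regulator MYC with 95 (9.89 RPM). Under RAD21 siRNA it carried CTCF with 67 tags (16.1 RPM), RAD21 with 74 (8.17 RPM), SMC3 with 36 (3.95 RPM) and MYC with 50 (5.10 RPM). Each was lower by RPM but higher by fold enrichment. The fold went from 35.49 to 48.17 for CTCF, 11.74 to 44.63 for RAD21, 10.59 to 20.28 for SMC3 and 4.90 to 22.11 for MYC. The p score was higher for RAD21 (430.86 to 543.26) and MYC (98.76 to 340.39). It was lower for CTCF (1378.50 to 608.19) and SMC3 (382.28 to 213.24). The RAD21 and SMC3 ratios of RPM, 0.748 and 0.437, were the highest of the retained peaks at the 6 loci.

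That site also held the sole siRAD21 REST peak of the 6 loci without a control counterpart, on chromosome 1 from 152798132 to 152799120. It held 15 tags (3.57 RPM), with a p score of 110.67 and an FDR of 0.46%. Of all siRAD21 REST peaks, 65.4% overlapped a control REST peak, compared with 7 of 8 here. The peak overlapped siRAD21 peaks of 8 other targets, namely RAD21, SMC3, NIPBL, CTCF, H3K4me1, HNF4A, JUND and MYC, whereas 0.413% of siRAD21 REST peaks overlapped 8 or more. NIPBL, the cohesin loader, held 21 tags there, the AP-1 member JUND 50, and the epithelial nuclear receptor HNF4A 11, with an FDR of 3.34%, 5.88% and 6.04%. None of these 3 had a control peak at any of the 6 loci, so their 2, 3 and 1 siRAD21 peaks lacked a control counterpart. Such peaks were common, at 66.3% of the whole siRAD21 list of NIPBL, 86.7% of that of JUND and 47.3% of that of HNF4A. The JUND library was 2.02 times as deep under RAD21 siRNA, and the control lists of JUND and NIPBL held 0 peaks with an FDR under 5%. The part of depth and of the IgG libraries in these peaks was not tested.

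H3K4me1 was found at 3 of the 6 loci and was missing within 50 kb of STMN2, GRIA2 and SCN2A under both siRNAs. The whole lists hold 61108 control and 53581 siRAD21 peaks. The share of other windows of this size without such a peak was not computed, so the absence is a description only. Of 8 control peaks, 6 were retained (95% interval 34.9 to 96.8%), against 74.3% of the whole list. Under RAD21 siRNA 5 of 11 peaks had no control counterpart, against 17.7% of the whole list: 2 each at SNAP25 and CHRNB2 and 1 at SCG3. The strongest of the 5 lay at the densest CHRNB2 site, with 57 tags (5.73 RPM), a p score of 339.87 and 25.52-fold enrichment. The others were weak, with p scores from 56.81 to 99.07, and the SCG3 one had its summit 50.6 kb beyond the position. No interval was computed for the 5 of 11. CHRNB2 retained 4 of 4 of its control peaks. The strongest there, 10.4 kb before the position, held 192 tags (10.2 RPM, p score 373.41) under control siRNA and 115 (11.6 RPM, 452.73) under RAD21 siRNA. SCG3 retained 2 of 3, lying 26.1 and 35.0 kb beyond the position. The first, the strongest control peak there with a p score of 326.96, held 106 tags (5.62 RPM) under control siRNA and 19 (1.91 RPM, p score 63.70) under RAD21 siRNA. Its ratio of 0.340 was the lowest of the 6 H3K4me1 ratios, whose median was 0.917, against 1.06 over 45398 retained peaks. The second SCG3 peak held 97 tags (5.14 RPM, p score 245.85) under control siRNA. Under RAD21 siRNA it held 44 (4.42 RPM, 117.34) and was the strongest H3K4me1 peak of SCG3. SNAP25 had a single weak control peak 33.1 kb beyond the position with 31 tags, a p score of 84.97 and an FDR of 6.85%, which was not retained. It had a pair of weak siRAD21 peaks 45.6 and 10.3 kb before the position, with p scores of 99.07 and 56.81.

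At the REST sites themselves H3K4me1 was absent in the control. CHRNB2 alone had a peak over its REST site under RAD21 siRNA, on chromosome 1 from 152806465 to 152808066, with 26 tags (2.61 RPM), a p score of 72.25 and an FDR of 2.62%. It was a weak peak, and 84.5% of the siRAD21 H3K4me1 list was as strong or stronger. Of all siRAD21 REST peaks, 23.0% overlapped H3K4me1, and 2 of the 8 at these loci did, both at CHRNB2.

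KLF5 and RFX2 had no peak at any of the 6 loci under either siRNA. Their whole lists are short, with 7791 control and 1781 siRAD21 peaks for KLF5 and 2078 and 1158 for RFX2. The share of other windows without such peaks was not computed. MYC had 2 control peaks, both at CHRNB2, and 1 was retained (95% interval 1.26 to 98.7%), against 28.9% of the whole list. The other lay 39.8 kb beyond the position with 93 tags (9.68 RPM). A siRAD21 JUND peak with 101 tags (6.62 RPM, p score 64.89, FDR 6.19%) overlapped that place. It was a weak peak, and 70.8% of the siRAD21 JUND list was as strong or stronger. CTCF also had a weak siRAD21 peak without a control counterpart, 46.1 kb beyond the SCG3 position with 10 tags. It was 1 of 11 siRAD21 CTCF peaks, against 12.9% of the whole list. The peak closest to the edge of a window from inside was a siRAD21 H3K4me1 peak 48.92 kb from the SCG3 position (p score 92.42). The closest from outside was a control CTCF peak 53.52 kb from the SCN2A position (434.77).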

How the data were processed

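The members and all lists were chosen with earlier results of these data known. Groups came from the titles of the libraries. A separate siRNA tag in the labels names RAD21 for 1 siRAD21 library and rising numbers for the others, and was not used. The submitters' processing notes name CASAVA 1.4, BWA, MACS 1.4 and hg18. For each library the authors called peaks with MACS 1.4.0rc2 against IgG at a p cutoff of 1e-05, with 1 tag kept per position, per the file headers. The deposited values per peak are a count of tags, a score (10 times the negative log10 of p), a fold enrichment (a linear ratio) and an FDR in percent. The FDR was read from the unnamed data column, since its number of values under 5 equals the peak number in the labels for all 22 lists. After filtering, control libraries held 3629966 to 19926326 tags and siRAD21 libraries 1747770 to 15263937, per the file headers, so a weak siRAD21 peak rests on few tags.

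Here, peaks were placed by any base within 50 kb of the given positions and matched by an overlap of at least 1 bp. Shares have Clopper-Pearson intervals, tags exact Poisson intervals, and ratios of RPM exact binomial intervals. Peaks of a pair differ in width. The rule named, at each gene, all REST peaks, the strongest peak of RAD21, SMC3, CTCF, NIPBL and H3K4me1 by p under each siRNA, and peaks overlapping REST. Other peaks singled out were chosen after their values were seen. Further genes that REST represses were to be looked up only with an hg18 annotation and were not analysed here. Overlap and motif searches were tested on simulated data. Python 3.11.15, numpy 2.4.6 and scipy 1.17.1 were used.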

Additional observations from a re-analysis of the deposited data

How the results depend on the processing

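Windows of 25 and 100 kb, placement by the summit, an FDR under 5%, a p score of at least 100, summits within 250 bp and lists of equal length were tried. Of 57 alternative values, 53 stayed within 1.5 times the count or within the 95% interval of the share. Control REST peaks numbered 5 at an FDR under 5%, where GRIA2 drops out, and 9 within 100 kb, of which 88.9% were retained. All 6 genes had a REST peak under both siRNAs in every setting run except the FDR limit. Retention of RAD21 was 100% (5 of 5 peaks) with equal list lengths, which left out the 5 control peaks not retained in the full lists. That of CTCF was 33.3% (4 of 12) at a p score of at least 100, and that of H3K4me1 was 100% (1 of 1) within 25 kb. Each of these came from fewer peaks. RAD21 was at 33.3% within 25 kb. SMC3 was at 27.8% within 100 kb and 11.1% at a p score of at least 100. The number of genes with an RE1 match was 1 with 2, 3 or 4 mismatches allowed, and 2 once wider spacers were added after seeing the data. With 6 to 14 control peaks of REST, RAD21, SMC3, CTCF and H3K4me1 and 2 of MYC, the intervals on these shares are wide.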
